A study of Homo sapiens with 6 samples.

Results

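The guides described here are those numbered 1 to 1495 in the custom library of a pooled CRISPR screen, with the non-targeting guides left out. They form a first guide set, in alphabetical order of gene, of 5 guides for each of 299 genes. The library holds 3653 guides in all, of which 1975 are second set guides that target the same 299 genes and 49 others, and 183 are non-targeting. The cells were HS-SY-II, a human synovial sarcoma line with the SS18::SSX1 fusion, which expressed Cas9 and carried the library in every group. Guides were counted at day 0, after 14 days of culture in vitro, and in vivo in tumours grown from these cells in nude mice (CDX, a xenograft of a cell line). Each group had 2 libraries. The labels give no day for the tumours, which by the study's methods were taken once they reached a set volume. Length of growth therefore cannot be told apart from the arm. The host mice lack T cells, all libraries come from a single cell line, and the tumour libraries carry replicate numbers 1 and 2 in the labels, whereas a supplementary figure of the study names both as mice of replicate 1, so that whether they share a transduction is not settled. The question was which first set guides and genes became rarer or more frequent against the non-targeting guides in each arm.

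In a dropout screen each guide leads Cas9 to a matching site, where repair of the cut often disrupts the gene. Cells that lose a gene they need divide less or die, and their guides become rarer than guides that cut nothing. Guides differ in how well they cut, and several are used per gene so that their agreement can be read beside the effect of each. A guide can also cut at sites other than its target, and in tumours a few founder cells can take over, which moves single guides in either direction. The tables used here give a number and a gene for each guide but no guide sequence, and none is printed.

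The libraries held 3394352 to 21854232 counts, on average 929 to 5983 for each guide, and day 0 replicate 1 was the deepest. Guides were kept at a mean of at least 30 day 0 counts, which left 1492 first set guides, 1932 second set guides and all 183 non-targeting guides. The 3 first set guides left out were sgRNA_324 of CTNNBIP1, sgRNA_682 of MAT2B and sgRNA_754 of MYO18A. Levels are given as CPM, counts relative to the library size, after scaling on the non-targeting guides alone, so that a log2 fold change of 0 is the course of a guide that cuts nothing. First set guides took 41.2% and 44.5% of all counts at day 0, 55.5% and 55.6% at day 14 and 54.2% and 55.0% in the tumours, and the 95% Wilson interval of each share, which covers counting error only, was at most 0.0529 percentage points to either side. Their share was thus higher in each later library than in either day 0 library. The non-targeting share rose too, from 5.46% and 5.89% at day 0 to 8.01% and 8.03% at day 14 and 7.42% and 6.92% in the tumours. The second set share fell from 53.3% and 49.7% to 36.5% and 36.3% at day 14 and 38.3% and 38.1% in the tumours. The rise in share alone therefore does not show an expansion of the first set.

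As a whole the first set stayed close to the non-targeting guides. In vitro the median log2 fold change was -0.12 over the first set, -0.02 over the non-targeting guides and -1.14 over the second set guides of the same genes. In vivo these medians were -0.02, 0.04 and -1.20. The first set lay 0.10 below the non-targeting median in vitro (0.15 and 0.08 in the separate libraries) and 0.06 below it in vivo, where the tumours differed in sign, at -0.19 and 0.01. These are descriptions over guides that share their libraries, and no test was made of them. The spread was wider in the tumours, with a standard deviation of 0.74 in vitro and 1.32 in vivo over the first set guides, and of 0.47 and 0.88 over the non-targeting guides.

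Beneath that median a minority of guides lay low. In vitro 199 of 1492 first set guides (13.3%) lay below the 5th percentile of the non-targeting guides, where 5.46% of the non-targeting guides lie, and over all 3424 kept targeting guides the share was 45%. In vivo 214 (14.3%) did so, against 35.6% of the targeting guides. At the other end 58 first set guides (3.89%) exceeded the 95th percentile in vitro and 102 (6.84%) in vivo, against 2.02% and 4.67% of the targeting guides. When a guide had to lie below the 5th percentile in both libraries of an arm, 111 first set guides (7.44%) did in vitro and 67 (4.49%) in vivo. Of the non-targeting guides 2 and 1 did, and of the 1457 second set guides of the same genes 767 and 432. Above the 95th percentile in both libraries were 35 first set guides in vitro and 15 in vivo, with 3 and 2 of the non-targeting guides.

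These low guides rarely shared a gene. In vitro the 111 guides fell in 89 genes, of which 68 had 1 such guide, 20 had 2 and SMARCD1 alone had 3. In vivo the 67 guides fell in 58 genes, of which 49 had 1 and 9 had 2. SMARCD1, a subunit of the BAF chromatin remodelling complex, SUMO2, which encodes a small ubiquitin-like modifier, and MPRIP were on both lists of genes with more than 1. The other genes with 2 such guides in vivo included ADO, CYHR1, GAD1, MYO18A and PPM1D, and those of MYO18A include a guide that was absent from a day 0 library. The intraclass correlation of the 5 guides of a gene, which is 0 where guides of a gene are no more alike than guides of different genes, was 0.03 in vitro and 0.00 in vivo. For the second set guides of the same genes it was 0.55 and 0.37. Over the 299 genes the first set median correlated with the second set median at a Pearson r of 0.11 (Spearman 0.03) in vitro and 0.16 (0.16) in vivo. These correlations are across genes, share their libraries and carry no test. Order within a gene made little difference in vitro, where the medians from the first listed to the last listed guide were -0.16, -0.15, -0.10, -0.11 and -0.12. In vivo they were -0.16, -0.04, 0.07, -0.00 and 0.00.

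Each guide was then tested in edgeR by quasi-likelihood, adjusted after Benjamini-Hochberg over all 3607 kept guides. In vitro 0 first set guides were called lower and 0 higher, and the calls over the whole library were also 0% in both directions. With no adjustment, 51 were lower and 2 higher at a p under 0.05. The counts of lower and higher guides were 27 and 0 in DESeq2, 0 and 0 in limma on the authors' normalized values, and 84 and 1 in edgeR on the day 0 and day 14 libraries alone. The 84 guides fell in 71 genes, 60 of them with 1 guide, and the 27 in 27 genes. The tumours do not enter that fit. Over the log2 CPM of first set guides the day 0 libraries correlated at 0.65, the day 14 libraries at 0.81 and the tumours at 0.64, and the part of this in the counts was not tested.

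The smallest p in vitro belonged to sgRNA_1038 of RPS27A, which encodes ubiquitin joined to a protein of the small ribosomal subunit and lies at chr2:55231903-55235853 (hg38, GENCODE v44). It had 474 and 229 CPM at day 0 and 3.04 and 2.93 CPM at day 14. Both day 14 libraries were far below both day 0 libraries, with a log2 fold change of -6.87 ± 0.92 (SE) that missed the threshold (adjusted p = 0.066). The next were sgRNA_1117 of SLC25A4, the ADP/ATP carrier of mitochondria, from 668 and 542 to 109 and 69.7 CPM, and sgRNA_601 of KCTD9, from 576 and 723 to 128 and 135 CPM. They changed by -2.76 and -2.30 (adjusted p = 0.12 for each) and did not overlap between the groups. The other 4 guides of RPS27A, SLC25A4 and KCTD9 had medians of -0.02, -0.15 and -0.10. Upward, the smallest p values were those of sgRNA_597 of KCNT1, a potassium channel, at 1.10 ± 0.44, sgRNA_330 of CUL9, a cullin, at 1.21 ± 0.52, and sgRNA_1078 of SFTPC, a lung surfactant protein, at 0.94 ± 0.47, and none of these passed (adjusted p of 0.30 to 0.39).

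In vivo the same test called 20 first set guides lower (1.34%) and 5 higher (0.335%), where the shares over all kept guides were 3.77% lower and 0.416% higher. The 20 lower guides belonged to 20 genes, with log2 fold changes of -7.71 to -2.56. At day 14 in vitro the 20 had a median change of -2.50 and a range from -6.87 to -0.05, beside a median of -0.12 over the first set. Both arms are measured against the same day 0 libraries, so guides chosen as low in vivo can also look low in vitro. The other 4 guides of these 20 genes had medians from -0.71 to 1.34, of which 8 lay above 0. DESeq2 called 87 lower and 85 higher, and limma on the authors' normalized values 19 lower and 17 higher (47.2% higher). With scaling on all guides in place of the non-targeting ones, TMM called 8 lower and 7 higher (46.7% higher). Median-ratio factors called 7 and 8 (53.3% higher), beside 20 and 5 (20.0% higher) with scaling on the non-targeting guides. The median non-targeting guide in vivo stood at 0.57 and 0.67 under these 2 scalings, at 0.04 in DESeq2 and at -0.02 in limma. The part of this in the calls was not tested. With the replicate number as a block 9 were called lower and 0 higher. Without day 0 replicate 1 or 2 no first set guide was called, while 47 guides lower and 33 higher, and 65 lower and 40 higher, had an unadjusted p under 0.05.

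Of the 25 guides of the ribosome and its assembly 1, of RPS27A, was among the 20, and 1, of ESF1, was called higher. Of the 15 guides of splicing and the 30 of replication and cell division 0 were called in either direction. Over all 1492 first set guides 20 were lower and 5 higher, so counts this small say little about the lists. The RPS27A guide, sgRNA_1038, had 1.60 and 1.72 CPM in the tumours, a change of -7.71 ± 0.95 from day 0 (adjusted p = 0.025), and was low in all later libraries. Its sister guides sgRNA_1037 and sgRNA_1040 had 187 and 238, and 213 and 413 CPM at day 0, and 321 and 1291, and 600 and 2036 CPM in the tumours, which are changes of 1.92 and 2.07 that did not pass (adjusted p = 0.12 and 0.10). The second set guides of RPS27A had a median of -5.23 in vivo. The gene thus held the lowest of the called guides and also guides above the non-targeting median.

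SUMO2 showed the same split. At chr17:75165586-75182959, its sgRNA_1228 went from 251 and 193 CPM at day 0 to 8.17 and 14.4 CPM at day 14 and 1.82 and 0.716 CPM in the tumours, with a change in vivo of -7.46 ± 1.18 (adjusted p = 0.027). A further guide, sgRNA_1226, went from 390 and 189 CPM to 71.9 and 23.4 CPM at day 14 and 1.82 and 24.2 CPM in vivo, where it missed the threshold (-4.47 ± 1.32, adjusted p = 0.086). The remaining 3 guides had in vivo changes of -0.77, 0.40 and 1.57, none of which passed, the last of them, sgRNA_1230, at 1467 and 2357 CPM in the tumours against 762 and 529 CPM at day 0. Summed over its 5 guides SUMO2 therefore stood at 0.49 in vivo (adjusted p = 0.27), whereas its second set median was -3.63.

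SS18, the BAF subunit that is fused to SSX in synovial sarcoma, had a called guide in sgRNA_1196, with 203 and 143 CPM at day 0, 39.7 and 25.6 CPM at day 14 and 1.37 and 1.43 CPM in the tumours (-6.93 ± 1.13 in vivo, adjusted p = 0.027). It was low in both arms and lower in the tumours, though the difference between the arms did not pass (-4.52 ± 1.02, adjusted p = 0.17). For KAT6A, a histone acetyltransferase, sgRNA_588 went from 379 and 302 CPM to 62.1 and 153 CPM at day 14 and 13.4 and 14.0 CPM in vivo (-4.63 ± 0.76, adjusted p = 0.027). RING1, a ubiquitin ligase of PRC1, had sgRNA_996 called at -2.60 ± 0.56 (adjusted p = 0.044), from 385 and 393 CPM to 64.5 and 63.7 CPM in the tumours. Its day 14 levels of 86.4 and 71.2 CPM were below both day 0 levels and above both tumours, and the change in vitro did not pass (-2.30 ± 0.55, adjusted p = 0.13). Summed over 5 guides and tested in edgeR, KAT6A stood at -0.12 and RING1 at 0.355 in vivo, and neither passed (adjusted p = 0.79 and 0.46). The other 4 guides of SS18 had a median of -0.35 in vivo.

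Further called guides were in genes with other roles. In GTPBP2, a GTPase of ribosome rescue at chr6:43605316-43629264, sgRNA_527 had 403 and 249 CPM at day 0, 19.1 and 4.68 CPM at day 14 and 2.96 and 1.58 CPM in the tumours (-7.17 ± 1.14 in vivo, adjusted p = 0.027). HSD11B2, which inactivates cortisol, had sgRNA_555 at 195 and 136 CPM, 37.8 and 47.2 CPM, and 0.684 and 1.00 CPM (-7.57 ± 1.16, adjusted p = 0.027). The median of its other 4 guides was 0.02 in vitro and 0.45 in vivo. KCTD9 sgRNA_601 fell to 52.2 and 36.8 CPM in the tumours (-3.87 ± 0.52, adjusted p = 0.025), and SLC16A13 sgRNA_1106, of a monocarboxylate transporter, from 315 and 223 CPM to 3.65 and 1.58 CPM (-6.69 ± 1.15, adjusted p = 0.030). The other called guides, chosen here after their values were seen, were in NAGLU, MSRB1, SLIRP, CUL9, SLC15A3, CLTB, CDS2, TMEM235, SLC25A4, KIT and SMARCD1, with adjusted p values of 0.030 to 0.047. The KIT guide sgRNA_621 and the SMARCD1 guide sgRNA_1153 differed from the rest in vitro. The first had 249 and 393 CPM at day 14 against 522 and 335 CPM at day 0, and 67.2 and 63.3 CPM in vivo, so that day 14 overlapped with day 0 and the tumours did not. The SMARCD1 guide had 334 and 315 CPM at day 14 against 365 and 305 CPM at day 0, and 69.0 and 44.8 CPM in vivo.

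The 5 guides called higher in vivo were in genes of unrelated kinds. They were sgRNA_847 of PCDHB15, a protocadherin, sgRNA_971 of RALGAPA2, a subunit of a GTPase activator of Ral, sgRNA_1464 of WWP2, a ubiquitin ligase, sgRNA_438 of ESF1, which acts in rRNA processing, and sgRNA_484 of GAD1, which makes the transmitter GABA. Of these sgRNA_847 had 331 and 244 CPM at day 0, 294 and 305 CPM at day 14 and 1456 and 1437 CPM in the tumours (2.33 ± 0.44, adjusted p = 0.035). The tumours were alike and above the other 4 libraries. RALGAPA2 sgRNA_971 had 304 and 263 CPM, 197 and 183 CPM, and 1815 and 1174 CPM (2.40 ± 0.46, adjusted p = 0.035), and WWP2 sgRNA_1464 had 272 and 376 CPM, 359 and 244 CPM, and 1512 and 1864 CPM (2.38 ± 0.48, adjusted p = 0.039). GAD1 held guides at both ends, since sgRNA_484 reached 6573 and 1514 CPM in the tumours from 303 and 484 CPM (3.36 ± 0.75, adjusted p = 0.050), and sgRNA_481 had 257 and 261 CPM at day 0, 17.3 and 1.76 CPM at day 14 and 27.6 and 11.6 CPM in vivo without passing (-3.73 ± 1.20, adjusted p = 0.10). The ESF1 guide was at 1138 and 1622 CPM in the tumours against 306 and 338 CPM at day 0, while the second set median of this gene was -3.30. At day 14 the 5 guides had changes of -0.58 to 0.64.

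Some guides went below every non-targeting guide, of which the lowest was at -2.59 in vitro and -3.31 in vivo. In vitro 24 first set guides in 22 genes did, and in vivo 32 in 30 genes, against 7.24% and 8.21% of all kept targeting guides. Over both arms these were 40 guides in 37 genes. For 6 of them, among them guides of FAM71F2, MYO18A, PPP2R2C, ING3 and SFTPC, a day 0 library held under 1 CPM, so that their starting level rests on the other day 0 library. The remaining 34 guides lay in 31 genes, 28 of which had 1 such guide and 3 of which had 2, namely SUMO2, SMARCD1 and ADO. Of these 34, 15 were below every non-targeting guide in both arms. The median of the other 4 guides of the gene was -0.10 in vitro and -0.19 in vivo at the centre of the 34 cases, and in 31 of them it was above the 5th percentile of the non-targeting guides in each arm. Day 0 replicate 2 was below replicate 1 for 26 of the 34 (median log2 difference -0.44) and for 720 of all 1492 first set guides (0.03). The same held for 901 of the 1457 second set guides of the 299 genes (-0.19) and for 91 of the 183 non-targeting guides (0.00). The part of this in the result was not tested.

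The genes of these 34 guides were also lower by the second set, though with wide overlap. The second set median was below -2 in vitro for 13 of the 31 genes (41.9%) and for 37 of the other 268 (13.8%), and in vivo for 16 (51.6%) and 61 (22.8%). The members with the lowest second set medians included RPL13, of the large ribosomal subunit, at -5.78 in vitro, and PIAS1, a SUMO ligase, at -5.10. RPL13 sgRNA_1028 had 122 and 230 CPM at day 0 and 20.1 and 25.4 CPM at day 14, and its tumours did not resemble each other, at 1.37 and 41.2 CPM. PIAS1 sgRNA_870 had 276 and 212 CPM at day 0, 13.1 and 56.4 CPM at day 14, and 20.5 and 1.29 CPM in vivo. At the other end NUDT18 had a second set median of -0.21 in vitro, with sgRNA_819 at 59.0 and 89.7 CPM at day 0 and 18.9 and 2.15 CPM at day 14.

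Counts were then summed over the kept first set guides of each gene and tested with edgeR together with the second set sums, 647 sums in all. In vitro the test called 0 of 299 first set genes lower and 0 higher (6 and 0 at an unadjusted p under 0.05), where 23.5% of all sums were lower and 0% higher. DESeq2 called 2 lower, limma on the mean log2 CPM of the guides 9 lower and edgeR on the day 0 and day 14 libraries alone 32 lower, with 0 higher in each. The smallest p values were those of GTPBP2, SMARCD1, BTRC, PRPF19 and NRN1. SMARCD1, at chr12:50085200-50100707, had summed levels of 1445 and 1077 CPM at day 0 and 774 and 638 CPM at day 14 (-0.84 ± 0.30, adjusted p = 0.078). GTPBP2 went from 1675 and 1441 to 838 and 1031 CPM (-0.74 ± 0.26, adjusted p = 0.076), and both genes had day 14 sums below both day 0 sums. BTRC, the ubiquitin ligase subunit that recognises beta-catenin, PRPF19, a splicing factor, and NRN1, which acts in neurite growth, were at -0.66, -0.74 and -0.59 (adjusted p of 0.080 to 0.10). Upward, CHRNA4, SFTPC, PTTG1, NUDT12 and CD36 had the smallest p, with changes of 0.29 to 0.41 and adjusted p values of 0.34 to 0.46.

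By first set guides below the non-targeting median in both day 14 libraries, 22, 70, 92, 76 and 33 genes had 0 to 4. Whether the number of genes with all 5 exceeds that of unrelated guides was not tested. In 6 genes all 5 first set guides lay below the non-targeting median in both day 14 libraries. They were SMARCD1, PRPF19, BTRC, CCND2, which encodes a cyclin, SLIRP, a mitochondrial RNA-binding protein, and MDM4, a p53 inhibitor, with gene medians of -1.33, -0.88, -0.73, -0.33, -0.32 and -0.28. Of these only PRPF19 and MDM4 had second set medians under -5, at -7.01 and -5.39. In NUDT12 all 5 lay above, with a median of 0.44. In vivo 41, 103, 90, 55 and 9 genes had 0 to 4 guides below the non-targeting median in both tumours. The 5 guides of IQCG lay below in both tumours and those of no gene above. The guides of SMARCD1 did not keep 1 pattern between the arms. In vitro sgRNA_1151 went from 191 and 156 CPM to 27.1 and 6.05 CPM (-3.39) and sgRNA_1155 from 251 and 91.4 to 39.0 and 5.46 CPM (-2.95). In the tumours, the parallel arm from day 0, sgRNA_1151 had 176 and 161 CPM (-0.04) and sgRNA_1155 had 16.4 and 34.4 CPM (-2.75). There sgRNA_1153, level in vitro, was called lower.

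In vivo the summed counts called 3 first set genes lower (1.00%) and 11 higher (3.68%), where over all sums 17% were lower and 2.32% higher. The lower genes were IQCG, a protein of cilia, at -0.91 ± 0.26, CDC45, a part of the replicative helicase, at -0.89 ± 0.26, and SMARCD1 at -1.04 ± 0.30 (adjusted p of 0.046, 0.048 and 0.049). IQCG went from 1545 and 1281 CPM at day 0 to 765 and 738 CPM in the tumours through 5 guides with changes of -1.14 to -0.51, while its second set median was -0.13. CDC45 went from 1438 and 1711 to 754 and 946 CPM, with a second set median of -3.85. GTPBP2 and ADO, an oxygen-sensing dioxygenase, followed at -0.76 and -1.37 (adjusted p = 0.077 and 0.085).

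The 11 higher genes were BPNT1, a phosphatase of sulfur nucleotide metabolism, SIK1, a salt-inducible kinase, FAM71F2, PCDHB15, WWP2, CHRNA4, a subunit of the acetylcholine receptor, WDR38, AP1S2, a clathrin adaptor subunit, COMMD5, DKK1, a secreted Wnt inhibitor, and SBK1, with changes of 0.86 to 1.65. BPNT1, at chr1:220057482-220090462, had 2672 and 2971 CPM at day 0, 2700 and 2727 CPM at day 14 and 7351 and 10390 CPM in the tumours (1.65 ± 0.30, adjusted p = 0.011). Its guides did not move alike, since sgRNA_125 was higher in both tumours, at 5258 and 3489 CPM against 1210 and 1025 CPM (adjusted p = 0.053), sgRNA_122 was at 161 CPM in the first tumour and 4773 CPM in the second, and sgRNA_121 was at 112 and 214 CPM against 292 and 320 CPM. In 10 of the 11 genes the median guide was above 0 in vivo, and COMMD5 was the exception. In COMMD5 the sum rose by 0.93 ± 0.26 while the median guide was at -0.86, and sgRNA_292 held 68.2% and 60.7% of the gene's CPM in the tumours. The leading guide of a gene was taken anew in each library, so that it can be a different guide. In 8 of the 11 genes the leading share in both tumours was above the leading share of both day 0 libraries. That count was not taken over all 299 genes. Over these the median share of the leading guide also rose, from 33.5% and 31.6% at day 0 to 41.0% and 43.4% in the tumours. The second set medians of the 11 genes ran from -1.87 to 0.05.

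The gene calls in vivo depended on how the guides were combined, on the scaling and on the libraries used. With the mean log2 CPM of the guides, which weights them alike, limma called 32 lower and 5 higher in vivo (13.5% higher, against 78.6% in the sums), and 4 of the 14 genes called in the sums were called there in the same direction. The median over first set genes was 0.24 in the sums and -0.14 in the means. Under TMM over all guides 0 were lower and 122 higher, and with a replicate block 0 and 4. Under that TMM scaling the median over first set genes was 0.77, and the median non-targeting guide stood at 0.57, so the 122 are not changes against the non-targeting guides. Without day 0 replicate 1 or 2 no gene was called (1 lower and 7 higher, and 5 lower and 9 higher, had an unadjusted p under 0.05), and without in vivo replicate 1 or 2 the counts were 26 lower and 110 higher, and 54 lower and 56 higher.

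Between the arms, in vivo against day 14 in vitro, 0 first set guides were called lower and 0 higher by edgeR (61 and 129 at an unadjusted p under 0.05), where over all kept guides 0% were lower and 0.111% higher. The counts were 23 and 54 in DESeq2 and 0 and 0 in limma. The smallest p was that of RALGAPA2 sgRNA_971, at 2.98 ± 0.47 (adjusted p = 0.092), followed by HSD11B2 sgRNA_555 at -5.61 ± 1.07, WWP2 sgRNA_1464, PCDHB15 sgRNA_847, SMARCD1 sgRNA_1153 and KIT sgRNA_621 (adjusted p of 0.15 to 0.17). Of gene sums 0 were called lower and 0 higher (3 and 65 at an unadjusted p under 0.05), where over all sums 0% were lower and 0.464% higher. DESeq2 called 0 lower and 33 higher and limma on the mean of guides 0 and 0. BPNT1 at 1.71 ± 0.30 and COMMD5 at 1.37 ± 0.26 came nearest, with an adjusted p of 0.051 each, and WDR38, AP1S2 and SIK1 followed. Downward IQCG, CDC45, MYO18A, NIPAL2 and COL25A1 had the smallest p (adjusted p of 0.16 to 0.25).

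Grouped by function, the first set held few members of each pathway, and the lists were drawn up with results of these data known. Of the 11 lists, 9 had no gene called by summed counts in either arm, and the calls in the others were CDC45 and SMARCD1, both lower in vivo. Of 5 genes of the ribosome and its assembly, whose second set guides had a median of gene medians of -4.19 in vitro and -5.23 in vivo, the first set guides had -0.21 and 0.03, beside -0.12 and -0.01 over all 299 genes. In vitro 4 of their 25 guides (16.0%) were below the 5th percentile of the non-targeting guides in both libraries, against 7.44% of the first set, 1 each in RPL13, RPL14, RPS27A and AAMP. In the SUMO pathway the first set median in vitro and in vivo was -0.30 and -0.77 for SUMO2, 0.12 and 0.14 for the E1 subunit UBA2, -0.24 and 0.05 for the E1 subunit SAE1, and -0.32 and -0.23 for the ligase PIAS1. The second set medians of these genes lay between -5.90 and -3.63 over both arms. In each arm 2 guides of SUMO2 and 1 each of SAE1 and PIAS1 were below that percentile in both libraries, and none of UBA2. The first set guides of SS18, SMARCD1 and the BAF subunit BRD9 had the lowest list median, -0.45 in vitro and -0.65 in vivo, with 5 of 15 guides below the percentile in vitro and 3 in vivo.

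For the other lists the median of gene medians was -0.07 in vitro and -0.30 in vivo for the splicing genes PRPF19, SRSF2 and GEMIN2, and -0.01 and -0.21 for 6 genes of replication and cell division, whose second set medians were -3.19 and -3.68. Over these lists the share of guides below that percentile in both day 14 libraries ran from 3.33% for replication and cell division to 21.1% for the Wnt genes (4 of 19). It was 20.0% for PRC1 (3 of 15), beside 7.44% over the first set. In vivo the share ran from 0% for shelterin to 10.5% for the Wnt genes, and was 6.67% for PRC1, beside 4.49%. The median of gene medians was -0.24 and -0.07 for RING1, RNF2 and PCGF3 of PRC1, -0.14 and -0.22 for 5 genes of histone acetylation and methylation, and -0.05 and -0.46 for the p53 regulators and effectors USP7, MDM4, PPM1D and CCNG1. USP7 and MDM4, which restrain p53, had 0 of their guides below the percentile in both libraries of either arm, with second set medians of -6.93 and -5.39 in vitro. PPM1D, a phosphatase that also restrains p53, had 1 such guide in vitro and 2 in vivo, with second set medians of -2.92 and -3.52. For 4 Wnt genes it was -0.07 and -0.03, for the shelterin genes TERF1 and TINF2 -0.05 and 0.35, and for 7 tissue-restricted genes, such as the surface receptor CD27 of lymphocytes, -0.11 and -0.36. In CD27 sgRNA_179 went from 211 and 132 CPM to 19.4 and 9.37 CPM at day 14 and 1.60 and 9.45 CPM in vivo, and missed the threshold (-4.94 ± 1.28 in vivo, adjusted p = 0.064).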

How the data were processed

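Guide counts were analysed for 6 libraries, 2 per group. The authors deposited whole-number counts of reads per guide, mapped with MAGeCK as the submitters' processing notes state (hg38, no versions), and a table of normalized signal values deposited beside them, each a multiple of the counts by a factor constant within a library. Each column was matched by name and 0 columns had no sample. First set guides were those numbered 1 to 1495. The members and gene lists were chosen with earlier results of these data known.

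TMM factors were computed over the 183 non-targeting guides (edgeR 4.0.16, R 4.3.3). Guides with a day 0 mean of at least 30 counts were fitted with glmQLFit and glmQLFTest, all libraries in 1 fit without a block, with Benjamini-Hochberg adjustment at 0.05. Log2 changes per library used a prior count of 1. Depth was 3394352 to 21854232 counts per library. By the study's methods the library was transduced in duplicate and each replicate was cultured, so day 0 and day 14 libraries come from separate transductions, while for the tumours this is not settled and p-values may there measure only the spread between tumours of the same transduction. Alternatives used DESeq2 1.42.0 and limma 3.58.1 (log2 of normalized values plus 1), other scalings and guide minimums (none, 100), the compared groups alone, a replicate block and each library left out. Named guides and genes were those with the smallest p per comparison and direction (up to 8 guides and 10 genes that passed, or the first 3 and 5), genes whose guides all lay on 1 side, and list members. Gene positions are from GENCODE v44. Some genes are not reported here. The fit was tested on simulated data. Descriptions used pandas 2.3.3, numpy 2.4.6 and scipy 1.17.1 under Python 3.11.15.

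By the study's methods the day 0 sample was taken from each transduction before its cells went into both arms, so same-numbered day 0 and day 14 libraries are paired by design, while the pairing of the tumours is not settled. Over all kept guides, deviations from the group means in same-numbered libraries correlated at 0.07 between day 0 and day 14, at 0.01 between day 0 and the tumours, and at -0.01 between day 14 and the tumours. Over the first set alone these were 0.11, 0.02 and -0.02.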

Additional observations from a re-analysis of the deposited data

Results flagged for a closer look

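Of the 3 first set guides left out for low day 0 counts, 2 had a later library over 3 counts above both day 0 libraries. The MAT2B guide sgRNA_682 had 3 and 2 counts at day 0, 137 and 189 counts at day 14, and 272 and 0 counts in the tumours. The CTNNBIP1 guide sgRNA_324 had 0 and 34 counts at day 0, 107 and 0 counts at day 14, and 0 counts in both tumours. The remaining guide, sgRNA_754 of MYO18A, had 0 counts in each library but day 14 replicate 2, where it had 1. None of the 3 enters a comparison of single guides above.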

How the results depend on the processing

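Counts of called first set guides and genes moved with the test, the scaling and the samples, and the cause was not tested beyond the construction of each alternative. In vitro, where 0 guides and 0 genes were called, DESeq2 called 27 guides and 2 genes, the fit of the 2 groups alone 85 guides and 32 genes, and limma on the mean of guides 9 genes. In vivo, where 25 guides and 14 genes were called, TMM over all guides gave 15 guides and 122 genes, median-ratio factors 15 guides, DESeq2 172 guides and 41 genes, the 2 groups alone 10 guides and 0 genes, and limma on the mean of guides 37 genes. There FAM71F2 and WDR38, higher in the sums, stood at -0.0377 and -0.0614. Between the arms, where 0 were called, DESeq2 called 77 guides and 33 genes and TMM over all guides 3 genes. With the replicate number as a block, paired by label, the calls in vivo were 9 guides and 4 genes, and no other count of calls changed.

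With each library of the compared groups left out in turn, the calls were 0 in vitro for guides and genes, 0 to 388 guides and 0 to 136 genes in vivo, and 0 to 304 guides and 0 to 127 genes between the arms. The high counts came without in vivo replicate 1 or 2 (388 and 375 guides against day 0), where the lone tumour is assumed to vary like the other groups, and the counts of 0 in vivo without day 0 replicate 1 or 2. The first set median relative to the non-targeting median ran from -0.176 to -0.0719 in vitro and from -0.193 to 0.00678 in vivo, where it changed sign without in vivo replicate 1. The share below the 5th percentile was 11.7% to 14.3% in vitro and 9.45% to 16.4% in vivo, and the share above the 95th 4.22% to 5.63% and 3.75% to 7.31%. Other minimums on day 0 counts and the authors' normalized values moved these medians and shares by less than the spread between replicates. Of the 8 named guides called lower in vivo, the 7 first by p kept the call under each of 8 alternatives that used all libraries of the compared groups, and SLC16A13 sgRNA_1106 under 7, and each lost it without either day 0 library. Depth limits the lowest levels, such as that of HSD11B2 sgRNA_555 at 3 and 7 counts in the tumours, so the size of such a change is less certain than its direction.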
